A study of Mus musculus with 6 samples.

Results

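Genes of lipoprotein assembly, high-density lipoprotein (HDL) exchange and liver X receptor (LXR) signalling, 10 in all, were followed in mouse retinal pigment epithelium (RPE). They were Apoe, Apob, Mttp, Pltp, Lcat, Scarb1, Abcg1, Nr1h2, Nr1h3 and Mylip, chosen by their symbols and function, and all 10 were found among the 54532 genes of the deposited count table. Bulk RNA was sequenced from 3 wild-type (WT) mice of the 129S1/SvlmJ strain and 3 Abca4-/- (Abca4KO) mice carrying the Abca4tm1Ght allele, all sampled 5 h after light onset. Both lines had the Leu450 form of Rpe65 and lived under a light period of 12 h per day on a standard diet. Each library came from 1 mouse, ages are not given in the labels used here, and the genotype cannot be told apart from the line, since one line carried each genotype.

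The RPE takes up cholesterol and other lipids both from the photoreceptor outer segments it digests and from circulating lipoproteins. It is known to release lipoproteins of its own towards Bruch's membrane and the choroid. Particles built on apolipoprotein B need the transfer protein MTP (Mttp) to load lipid in the endoplasmic reticulum, whereas particles built on apolipoprotein E (Apoe) take lipid from transporters such as ABCA1 and ABCG1. HDL is then remodelled by LCAT and PLTP and delivers cholesterol through the receptor SR-BI (Scarb1). LXR alpha (Nr1h3) and LXR beta (Nr1h2) are nuclear receptors that sense oxysterols and raise Abca1, Abcg1, Apoe, Pltp and Mylip when activated.

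Total counts lay between 17047286 and 19841307 per library, and 17340 genes passed the filter on low counts and were tested. Abca4 measured 952 ± 18.1 CPM (the count scaled to a common library size) in the WT libraries, against 36.2 ± 3.31 CPM in those labelled Abca4KO (SD, n = 3 each), so the libraries matched their labels. The summed level of RPE markers was high in all 6 libraries: all 12 were tested, and the sum was 32593 to 41249 CPM in WT and 36771 to 39155 CPM in Abca4KO. Ttr and Rgr were the most abundant, at means of 13922 and 10740 CPM, and Best1 the least, at 6.02 CPM. Without overlap, Kcnj13 was higher and Lrat lower in Abca4KO (edgeR adjusted p = 0.486 and 0.669). Over all tested genes, 12.8% were without overlap. One library stood apart: 8 interferon response genes summed to 1974 CPM in WT 2 and to between 174.5 and 277.0 CPM in the other 5. WT 2 also had the lowest sum of RPE markers and the highest sum of 14 macrophage and microglia markers, at 1667 CPM against 880 to 1498 CPM elsewhere. Abca4KO 1 had the highest sum of 9 rod markers, at 3376 CPM against 684 to 1782 CPM. In bulk tissue, fewer cells of a type and less RNA per cell cannot be told apart.

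Of the 9 genes with enough reads, none passed the test of a difference between the genotypes, and Apob was all but absent. In edgeR's quasi-likelihood test 0 of the 9 passed an adjusted p of 0.05, against 0.0461% of all tested genes. At an unadjusted p under 0.05 the count was also 0, where 7.02% of all tested genes passed. DESeq2 and limma-voom likewise gave 0 of the set past the adjusted threshold, and DESeq2 gave 1, Abcg1, at an unadjusted p under 0.05, as for 4.1% of all genes it tested. WT and Abca4KO libraries were separate for 1 of the 9, Pltp, while this held for 12.8% of all tested genes. The median log2 fold change (Abca4KO minus WT) was 0.08 over the 9 genes and -0.01 over all tested genes, with 5 of the 9 positive. Without WT 1 it turned to -0.014, with 4 positive, and without WT 3 it was 0.011. The median size of the log2 fold change, without its sign, was 0.11 against 0.15 over all tested genes.

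**Figure D1:**
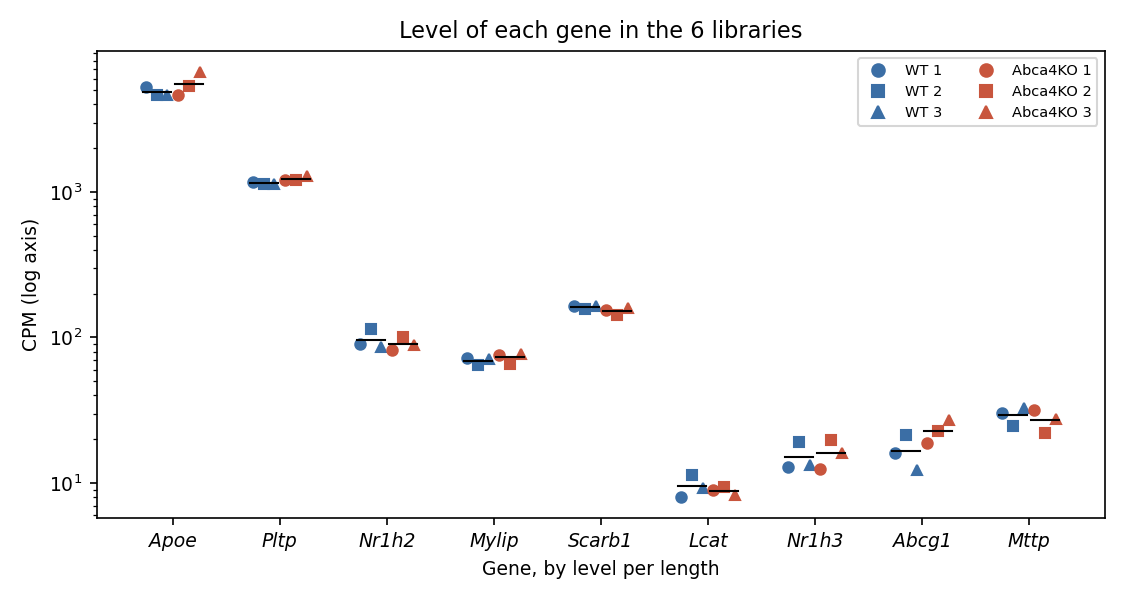
Level of the 9 genes with enough reads in each library, in CPM on a log axis, with circles, squares and triangles for replicates 1, 2 and 3 and a black bar for each genotype's mean (n = 3). Genes stand in order of their level per length. The log axis compresses differences between WT and Abca4KO points: Abcg1 ran from 12.2 CPM in WT 3 to 26.9 CPM in Abca4KO 3. For Pltp all Abca4KO points lie above all WT points, by a small margin. Apob, with 3 reads in all, is not drawn.

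Levels of different genes were compared per length, in TPM, the count per base of the deposited gene length scaled to a common sum in each library. Apoe stood first at 7027 ± 1094 TPM (SD over 6 libraries), between rank 13 and rank 18 of all genes in each library. Pltp came next at 1342 ± 88.8 TPM, ranked 47 to 58. Nr1h2 followed at 80.2 ± 7.20 TPM, and every library of it lay above every library of Mylip, at 63.6 ± 7.01 TPM. Mylip encodes a ubiquitin ligase and Scarb1 an HDL receptor, and they overlapped in range (Scarb1 53.6 ± 5.35 TPM). The lower levels ran from Lcat (19.8 ± 2.37 TPM) over Nr1h3 (17.8 ± 2.92 TPM) and Abcg1 (13.9 ± 3.38 TPM) to Mttp (13.2 ± 2.62 TPM), and each of these overlapped the next. The place of Abcg1 depends on its annotated length: with the exons of GENCODE M21, which sum to 7298 bases against 4066 in the deposited table, its mean would be 7.75 TPM, below Mttp. Lengths of the other 9 genes were the same in both.

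Lipoprotein assembly was represented by Mttp without Apob. Apob (chromosome 12, 7977648 to 8016835 in mm10, plus strand), the large structural protein of low-density lipoproteins, had 3 reads in WT 2 and 0 in each of the other 5 libraries. A count of 0 allows up to 3 reads, which is 0.152 to 0.174 CPM per library, so the gene was not tested and no fold is given. Mttp (chromosome 3, 138089854 to 138144968, minus strand), the lipid-loading partner of apolipoprotein B, measured 30.4, 24.7 and 32.9 CPM in WT 1 to 3 and 31.6, 22.2 and 27.5 CPM in Abca4KO 1 to 3. Its genotypes overlapped, with the lowest values in WT 2 and Abca4KO 2.

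The fitted log2 fold change of Mttp was -0.12 (SE 0.16, edgeR adjusted p = 0.921), and its 95% interval, as a change in Abca4KO, ran from -29.4% to 20.5%. Mttp lies 15.91 Mb from Abca4 on the same chromosome. It shares 457 exon bases with Trmt10a on the opposite strand, which had 762 reads against 3171 for Mttp, so the count of Mttp is uncertain to that extent.

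The sequence before the start site is shown for this pair because one of them was read throughout and the other was all but silent in the same tissue. These are the 250 bases before RefSeq's start (GRCm38.p6), 5′ to 3′, at chr12:7977427-7977676 on the plus strand for Apob and chr3:138143419-138143668 on the minus strand for Mttp, with a TATA box (TATAAA, either strand) in capitals.
Apob: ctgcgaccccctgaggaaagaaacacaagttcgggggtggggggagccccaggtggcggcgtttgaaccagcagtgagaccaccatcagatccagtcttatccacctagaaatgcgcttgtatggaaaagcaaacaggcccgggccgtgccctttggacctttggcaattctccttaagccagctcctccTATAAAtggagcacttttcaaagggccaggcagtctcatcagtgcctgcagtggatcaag
Mttp: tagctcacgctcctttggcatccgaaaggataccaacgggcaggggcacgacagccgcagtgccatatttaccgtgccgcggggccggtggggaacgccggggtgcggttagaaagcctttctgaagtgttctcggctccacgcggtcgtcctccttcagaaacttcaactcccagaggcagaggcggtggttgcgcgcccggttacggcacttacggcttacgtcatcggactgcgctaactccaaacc
The Apob window holds 1 TATAAA, which starts 60 bases before RefSeq's start, and has 55.2% G and C. That start lies inside the span of the deposited table, which begins at 7977648, so the TATAAA lies closer to the deposited start. RefSeq's start of Mttp also lies inside the span of the deposited table. The Mttp window holds no TATAAA and has 61.2% G and C. The median was 52.4% over all 32851 windows of the same length, of which 12.4% hold a TATAAA.

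Apoe, the apolipoprotein of HDL-like particles in neural tissue and of remnant lipoproteins, was the most abundant of the set. It lies on chromosome 7 from 19696109 to 19699188 on the minus strand. Its level was 5264, 4604 and 4676 CPM in WT and 4625, 5380.4 and 6678 CPM in Abca4KO. Abca4KO 3 was the highest library, while Abca4KO 1 lay among the WT libraries. The means were 4848 ± 362 and 5561 ± 1039 CPM (SD, n = 3 each), a log2 fold change of 0.20 (SE 0.15, edgeR adjusted p = 0.841) with an interval from -9.87% to 46.0%. Without Abca4KO 3 the log2 fold change was 0.05.

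Among the HDL remodelling genes, Pltp (chromosome 2, 164839518 to 164857711, minus strand) was the one with separate genotypes. It encodes the transfer protein that moves phospholipid between lipoproteins. Levels were 1177, 1131 and 1128 CPM in WT and 1210.3, 1211 and 1282 CPM in Abca4KO. All Abca4KO libraries lay above all WT libraries, by a small margin. The same held for the summed fibroblast markers (6 of 6 read in every library, 1330 to 1617 CPM in WT and 1644 to 2075 CPM in Abca4KO) and mural cell markers (6 of 6, 514 to 649.6 CPM and 695 to 797 CPM). No other list of marker genes had sums without overlap. Dcn, the most abundant fibroblast marker, overlapped, at 857.9, 825.7 and 715.7 CPM in WT and 813.1, 1070 and 805.2 CPM in Abca4KO. Col1a2 and Pdgfra overlapped as well, whereas Col3a1, Col1a1 and Lum did not. The mural markers did not all move together, with 4 positive and 2 negative log2 fold changes. Mean Rgs5 was 264.0 CPM in WT and 407.1 CPM in Abca4KO. Cspg4 went the other way without overlap, at 74.4 and 60.0 CPM, and Acta2 and Pdgfrb hardly differed. The part of those cells was not tested. For Pltp the log2 fold change was 0.11 (SE 0.08, edgeR adjusted p = 0.823), and the interval ran from -4.83% to 22.0%. Pltp shares 495 exon bases with the cathepsin A gene Ctsa on the opposite strand, whose 35361 reads equalled 26.45% of those of Pltp. The sources used here do not say how reads in the shared stretch were assigned.

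Because Pltp was the member whose genotypes separated, its upstream sequence is printed as well, from the 250 bases before RefSeq's start at chr2:164857709-164857958 on the minus strand, with a GC box (GGGCGG, either strand) in capitals.
Pltp: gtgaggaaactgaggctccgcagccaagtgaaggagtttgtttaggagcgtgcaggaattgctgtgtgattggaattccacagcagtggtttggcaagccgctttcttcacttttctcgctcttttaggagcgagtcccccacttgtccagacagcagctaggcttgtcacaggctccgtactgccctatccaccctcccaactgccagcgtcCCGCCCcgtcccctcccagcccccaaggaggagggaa
It holds 1 GC box, read on the other strand, and 32.7% of all windows of this length hold at least 1. The half-site AGGTCA, which nuclear receptors such as LXR are known to bind in pairs, was searched on both strands in the 11 windows listed for 8 of the genes and was found in 0 of them, against 14.0% of all windows. This says only that these letters are not in these windows.

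Lcat (chromosome 8, 105939551 to 105943382, minus strand), the enzyme that esterifies cholesterol on HDL, measured 8.06, 11.4 and 9.25 CPM in WT. In Abca4KO it measured 8.93, 9.34 and 8.25 CPM, all within the WT range. The log2 fold change was -0.12 (SE 0.19, edgeR adjusted p = 0.931), with an interval from -31.9% to 25.0%.

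Scarb1 (chromosome 5, 125277087 to 125341094, minus strand) encodes the HDL receptor SR-BI, which also brings carotenoids into cells. Levels were 164.1, 157.5 and 164.6 CPM in WT and 155.5, 142.3 and 159.5 CPM in Abca4KO. Abca4KO 3 lay above WT 2, so the genotypes overlapped, and Abca4KO 2 was the lowest library. The log2 fold change was -0.09 (SE 0.07, edgeR adjusted p = 0.857), and the interval from -16.7% to 6.21% was the narrowest among the 9 genes.

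Abcg1 (chromosome 17, 31057698 to 31115777, plus strand), the transporter that passes cholesterol to HDL, had the largest fitted difference of the 9 genes. It measured 16.0, 21.4 and 12.2 CPM in WT and 19.0, 22.9 and 26.9 CPM in Abca4KO. The genotypes overlapped through WT 2, which lay above Abca4KO 1. The means were 16.5 ± 4.64 and 22.9 ± 3.96 CPM (SD, n = 3 each), a log2 fold change of 0.47 (SE 0.23, edgeR adjusted p = 0.733), and the interval ran from -4.15% to 99.9%. Without WT 2 the log2 fold change was 0.70 (adjusted p = 0.300) and the unadjusted p fell under 0.05, as for 10.7% of all genes tested in that fit. It was 0.30 without WT 3 (edgeR adjusted p = 0.805) and 0.34 without Abca4KO 3 (edgeR adjusted p = 0.976). Over all alternatives the adjusted p of Abcg1 lay between 0.0885 and 0.981.

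Markers of blood vessel cells, taken as a sum, varied together with Abcg1. The 10 endothelial markers summed to 403, 548.7 and 322 CPM in WT 1 to 3 and to 532, 549.7 and 812 CPM in Abca4KO 1 to 3. This sum placed the 6 libraries in the same order as Abcg1 did, with WT 2 and Abca4KO 2 nearly tied. Taken singly, Esam, Erg and Emcn kept that order and the other markers did not. All 10 markers had positive log2 fold changes (median 0.60), and 0 passed the adjusted threshold. An unadjusted p under 0.05 was reached by 5 of them, against 7.02% of all tested genes. Plvap, the most abundant of them, measured 129.8, 174.6 and 93.1 CPM in WT and 138.4, 172.1 and 220.4 CPM in Abca4KO, and none of the 10 was at 0 in any library. The endothelial sum overlapped between the genotypes, with WT 2 above Abca4KO 1. The sums of fibroblast and mural cell markers, given beside Pltp, were higher in all Abca4KO libraries than in all WT libraries. The part of these cells in the difference of Abcg1 was not tested. The match in order was noticed after the values were seen, among 10 lists of marker genes.

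ABCG1 and ABCA1 export cholesterol side by side, and both genes are known LXR targets, yet their fitted differences had opposite signs. Abca1 measured 193.3, 181.9 and 190.0 CPM in WT and 157.6, 155.4 and 149.3 CPM in Abca4KO, without overlap (log2 fold change -0.29, edgeR adjusted p = 0.526). The log2 ratio of Abcg1 to Abca1 within each library, a quantity that does not depend on library scaling, was -3.59, -3.09 and -3.96 in WT. In Abca4KO it was -3.05, -2.77 and -2.47, above all WT libraries. The difference of 0.78, a 1.72-fold higher ratio, gave p = 0.1 in an exact 2-sided permutation test, the smallest that 3 against 3 libraries allow. This ratio was chosen after the values of both genes were seen.

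The LXR genes themselves did not pass the test, and LXR beta outweighed LXR alpha in each library. Nr1h2 (chromosome 7, 44549616 to 44553951, minus strand) measured 90.3, 113.6 and 85.5 CPM in WT and 82.3, 100.5 and 89.0 CPM in Abca4KO. Nr1h3 (chromosome 2, 91184061 to 91202834, minus strand) measured 12.8, 19.3 and 13.2 CPM in WT and 12.4, 19.9 and 16.0 CPM in Abca4KO. For both genes WT 2 and Abca4KO 2 were the highest libraries, and the genotypes overlapped. WT 2 and Abca4KO 2 also had the highest sums of macrophage and microglia markers, 1667 and 1498 CPM, against 880 to 1261 CPM in the others. All 14 of these markers were read in every library, and most were highest in WT 2 and Abca4KO 2 within their genotype. Csf1r, the most abundant, went against the sum. It measured 593.96, 566.56 and 579.82 CPM in WT and 525.53, 524.96 and 550.85 CPM in Abca4KO. Within each genotype it was thus lowest in WT 2 and Abca4KO 2. Cd163 was also lowest in WT 2 among the WT libraries, at 2.25 CPM. The part of macrophages and microglia, which are known to express Nr1h3, was not tested.

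For Nr1h2 the log2 fold change was -0.09 (SE 0.13, edgeR adjusted p = 0.923), with an interval from -23.9% to 16.0%. For Nr1h3 it was 0.09 (SE 0.23, edgeR adjusted p = 0.962), with an interval from -26.8% to 55.0%. Per length, Nr1h3 made up 15.9%, 18.5% and 17.1% of the sum of both LXRs in WT and 16.8%, 20.9% and 19.3% in Abca4KO. The log2 ratio of Nr1h3 to Nr1h2 was 0.17 higher in Abca4KO on average, with overlapping libraries (p = 0.3, exact 2-sided permutation test of 3 against 3).

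**Figure D2:**
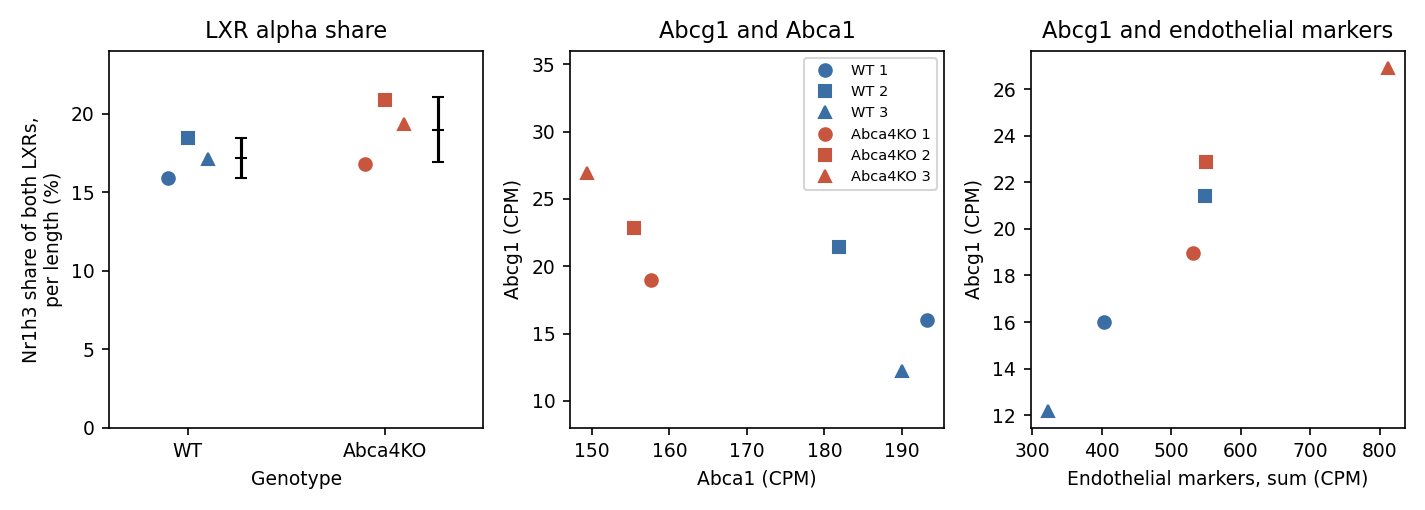
Left, share of Nr1h3 in the sum of both LXRs per length (TPM), in percent, by genotype, with mean and SD (n = 3) beside the points. Middle, Abcg1 against Abca1 in CPM, where all Abca4KO libraries lie left of all WT libraries in Abca1; right, Abcg1 in CPM against the sum of 10 endothelial markers in CPM, where both place the 6 libraries in the same order.

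Mylip (chromosome 13, 45389742 to 45412022, plus strand) encodes IDOL, the ubiquitin ligase by which LXRs send lipoprotein receptors to degradation. It measured 72.2, 64.4 and 70.6 CPM in WT and 75.6, 66.1 and 76.9 CPM in Abca4KO. WT 2 and Abca4KO 2 were the lowest libraries. The log2 fold change was 0.08 (SE 0.09, edgeR adjusted p = 0.900), with an interval from -9.09% to 22.5%. Its substrate Vldlr, a lipoprotein receptor gene, did not pass either, at 216.5 ± 25.1 and 183.2 ± 27.5 CPM (SD, n = 3 each, edgeR adjusted p = 0.767).

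**Figure D3:**
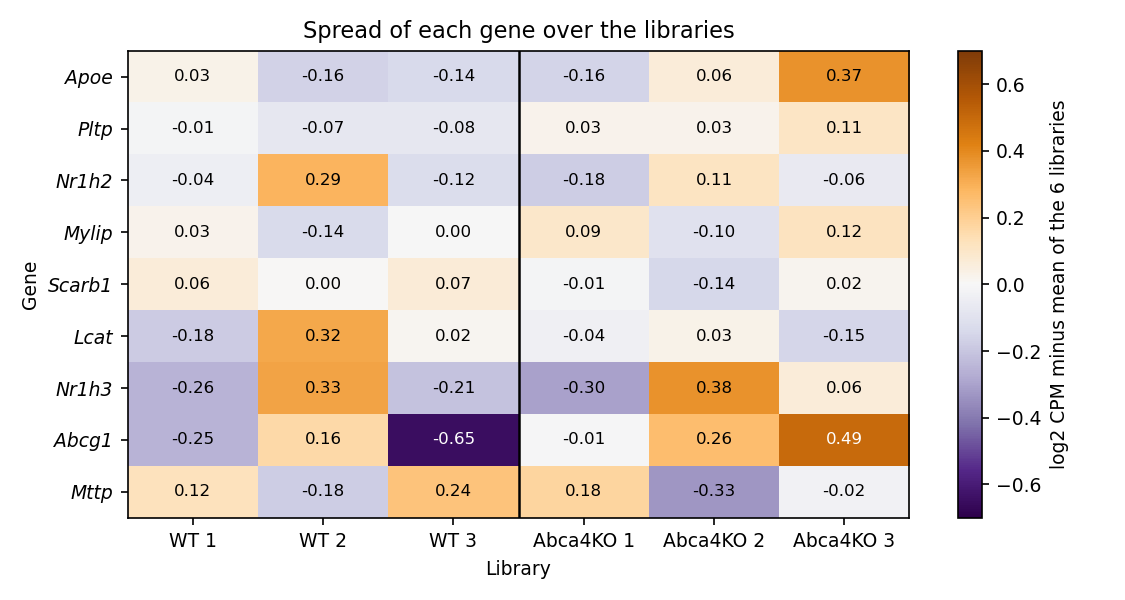
Each cell gives log2 CPM of a gene in a library minus its mean over the 6 libraries, with WT left and Abca4KO right of the line and brown above, purple below the mean. WT 2 and Abca4KO 2 share the direction for Nr1h2, Nr1h3, Mylip and Mttp, and Abcg1 has the widest spread, from -0.65 in WT 3 to 0.49 in Abca4KO 3.

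**Figure D4:**
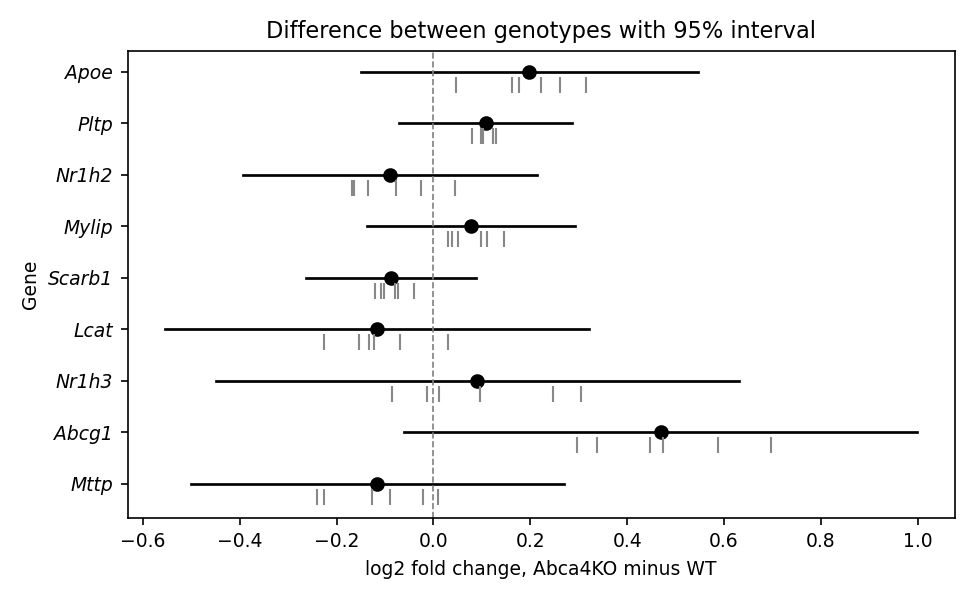
Fitted log2 fold change of each gene (Abca4KO minus WT, 3 against 3 libraries, black point) with its 95% interval, and grey ticks for the fits that leave out 1 library each. Every interval crosses 0, and that of Abcg1 reaches furthest, from -0.06 to 1.00.

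Leaving out both WT 2, which had the highest sum of interferon genes, and Abca4KO 1, which had that of rod markers, gave 0 genes of the set past the adjusted threshold. In that fit of 2 against 2 libraries Abcg1 came closest, with a log2 fold change of 0.80 (edgeR adjusted p = 0.0885). Abcg1, Nr1h3 and Mttp had an unadjusted p under 0.05 there, 3 of 9 against 16.4% of all genes tested, with Mttp lower at -0.37 and Nr1h3 higher at 0.45. The genotypes did not overlap for 6 of the 9, against 48.2% of all genes tested in that fit.

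Of 99 further genes of these pathways, 75 were tested and 0 passed in edgeR's quasi-likelihood test or limma-voom, while 12 had an unadjusted p under 0.05, of which 5 were higher and 7 lower in Abca4KO, against 7.02% of all tested genes. Without WT 1, and likewise without Abca4KO 3, 2 were higher and 4 lower of 76 tested. In those fits 5.78% and 4.26% of all genes tested had an unadjusted p under 0.05. DESeq2 gave 1 of 96 past the adjusted threshold, Angptl4, where 106 of all 29052 genes it tested passed. In the main fit the median log2 fold change of the 75 genes was 0.02, with 40 positive and 35 negative.

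Other apolipoproteins and HDL proteins (20 genes, 8 tested, 7 positive, median log2 fold change 0.13) were led in level by Clu, the apolipoprotein J gene, at 6916 ± 139.9 CPM against 7008 ± 122.7 CPM (SD, n = 3 each). Apoa1, Apoa2 and Apoa4, the apolipoprotein A genes of plasma HDL, had too few reads to be tested. Apod, a lipocalin that carries small lipids, measured 224.9 ± 25.1 against 303.8 ± 132 CPM (SD, n = 3 each), and Abca4KO 2 alone held 455 CPM. Among the paraoxonase genes, whose products travel on HDL, Pon1 measured 723 ± 50.8 against 774 ± 32.9 CPM (SD, n = 3 each). Pon3 measured 128.4 ± 16.5 against 105.7 ± 7.96 CPM (SD, n = 3 each, edgeR adjusted p = 0.701).

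Partners of lipoprotein assembly and export were present throughout: 14 of 15 were tested, 9 of them positive, with a median of 0.06. P4hb, the other subunit of the MTP complex, measured 255.4 ± 29.8 and 277.8 ± 19.7 CPM (SD, n = 3 each). Mia2, Mia3 and Surf4, which help large cargo leave the endoplasmic reticulum, had log2 fold changes of 0.13, -0.12 and 0.11. Surf4 shares 144 exon bases with Surf2 on the opposite strand. Dgat1, which makes triglyceride, measured 30.3, 28.8 and 27.8 CPM in WT and 33.1, 33.8 and 40.2 CPM in Abca4KO, without overlap (edgeR adjusted p = 0.679).

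Partners in HDL exchange and lipolysis (14 genes, 10 tested, 7 positive, median 0.17) included Angptl4, which had the smallest unadjusted p of the 75 genes. Angptl4, a secreted inhibitor of lipoprotein lipase, measured 56.6, 49.4 and 50.9 CPM in WT and 32.6, 32.5 and 19.9 CPM in Abca4KO. The genotypes did not overlap, and the log2 fold change was -0.88 (SE 0.19). Its adjusted p was 0.473 in edgeR's quasi-likelihood test and 0.00355 in DESeq2, and between 0.0606 and 0.935 in the other fits with edgeR or limma-voom. Lipc, the hepatic lipase gene, was near the lower end of detection, at 0.426 ± 0.207 against 0.867 ± 0.307 CPM (SD, n = 3 each). Lpl, the lipase that Angptl4 inhibits, measured 144.5 ± 32.4 against 180.4 ± 15.7 CPM (SD, n = 3 each, edgeR adjusted p = 0.761).

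Most LXR partners and coregulators had lower fitted levels in Abca4KO, without passing the test. All 11 were tested, 10 had negative log2 fold changes, and the median was -0.18 against -0.01 over all tested genes. Summed levels were 874 to 900 CPM in WT and 769 to 818 CPM in Abca4KO. In edgeR, DESeq2 and limma-voom 0 passed the adjusted threshold. In edgeR 3 of the 11 had an unadjusted p under 0.05, against 7.02% of all tested genes. Among them were Nrip1 (47.9 ± 5.01 against 37.8 ± 3.85 CPM) and Ncor1 (152.6 ± 3.07 against 133.6 ± 9.43 CPM, SD, n = 3 each). These encode proteins that repress or temper nuclear receptors. Ncor1 overlaps Ttc19 and Pigl on the opposite strand. In DESeq2 1 of the 11 had an unadjusted p under 0.05, against 4.1% of all genes it tested. In edgeR without WT 3 or without Abca4KO 3 the count was 0. The obligate partner Rxra measured 82.9 ± 4.67 and 79.6 ± 6.35 CPM (SD, n = 3 each).

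Other LXR target genes (24 genes, 19 tested, 12 positive, median 0.09) went in both directions. Abca1 and the phagocytic receptor gene Mertk were lower at an unadjusted p under 0.05, and Mlxipl, Fads2, Smpdl3a and Scd1 higher. These were 2 lower and 4 higher of the 19, against 7.02% of all tested genes. Without WT 1, and likewise without Abca4KO 2, 1 was higher and 2 were lower. In those fits 5.78% and 4.53% of all genes tested had an unadjusted p under 0.05. Mlxipl, a transcription factor gene of sugar-driven lipid synthesis, measured 6.06 ± 0.463 against 8.94 ± 0.405 CPM (SD, n = 3 each, edgeR adjusted p = 0.616). Fads2, a fatty acid desaturase gene, measured 227.6 ± 16.6 against 266.3 ± 8.95 CPM (SD, n = 3 each, edgeR adjusted p = 0.679). Srebf1, a central LXR target, measured 361.7 ± 29.3 against 319.8 ± 16.4 CPM (SD, n = 3 each). Among genes of Mylip's pathway of lipoprotein uptake (10 genes, 9 tested, 3 positive, median -0.06), 0 had an unadjusted p under 0.05. Ube2d1, an E2 enzyme for ubiquitin transfer, came closest, at 22.2 ± 1.73 against 25.8 ± 1.25 CPM (SD, n = 3 each, edgeR adjusted p = 0.744).

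Oxysterol enzymes, which make or break down the ligands of LXRs (10 genes, 7 tested, 3 positive, median -0.03), also had 0 genes at an unadjusted p under 0.05. Cyp27a1, which makes 27-hydroxycholesterol, measured 121.0 ± 16.4 against 125.5 ± 8.23 CPM (SD, n = 3 each). Ch25h, which makes 25-hydroxycholesterol and is known to be induced by interferon, stood at 8.70 CPM in WT 2 and between 0.544 and 2.73 CPM in the other libraries. It shares 159 exon bases with Gm26902 on the opposite strand.

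**Figure D5:**
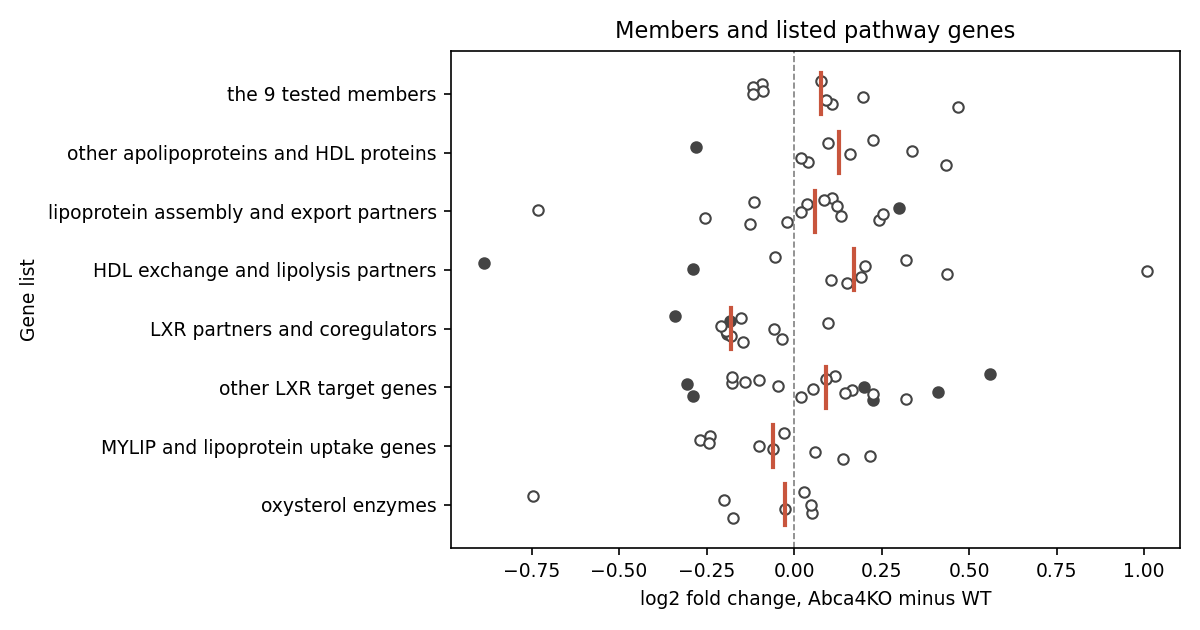
Log2 fold change (Abca4KO minus WT, 3 against 3 libraries) of the 9 tested members and of the tested genes of each pathway list. Filled points have an unadjusted p under 0.05 in edgeR and red bars are medians; the list of LXR partners and coregulators has its median at -0.18, and the lowest point among the HDL exchange and lipolysis partners is Angptl4 at -0.88.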

How the data were processed

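Per gene and library, the authors deposited raw read counts. The submitters' processing notes name STAR, HTSeq and mm10 and give no version. Annotation release and use of strand are not given in the sources used here. From these counts, edgeR 4.0.16 (R 4.3.3) kept genes by filterByExpr (minimum count 10), scaled libraries by TMM and compared Abca4KO with WT by its 2-sided quasi-likelihood test over 17340 genes, with Benjamini-Hochberg adjustment and a threshold of 0.05. SEs were derived from log2 fold change and F statistic, and 95% intervals use edgeR's total degrees of freedom, residual plus prior. Alternatives were other size factors and filters, DESeq2 1.42.0, limma-voom (limma 3.58.1), a replicate block and left-out libraries. The fit was tested on simulated data. Exon overlaps come from GENCODE M21 and upstream sequences from RefSeq (GRCm38.p6). All pairs of libraries differed beyond counting noise (chi-square per degree of freedom at least 9.97). Floors cover counting error only, since reads carry no molecular identifiers. The members and gene lists were chosen with earlier results of these data known, and interferon genes after the values were seen. Besides the members, up to 4 genes per list were named by smallest unadjusted p. Clu, P4hb, Rxra, Srebf1, Smpdl3a, Scd1 and the Apoa genes were chosen after their values were seen. Some listed genes are not reported here by name.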

Additional observations from a re-analysis of the deposited data

How the results depend on the processing

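No setting brought any of the 9 tested genes past an adjusted p of 0.05, with a lowest adjusted p of 0.0885 for Abcg1 without both WT 2 and Abca4KO 1. Of 126 refitted log2 fold changes, 118 kept their sign. Those that turned lay within 0.1 of 0: without single libraries, Mttp ranged from -0.24 to 0.010 (positive without Abca4KO 2), Nr1h2 from -0.17 to 0.044 (positive without WT 2), Nr1h3 from -0.086 to 0.30 (-0.014 without WT 1, lowest without Abca4KO 2) and Lcat from -0.23 to 0.031 (positive without WT 2). Without both WT 2 and Abca4KO 1, Nr1h2 was 0.095, Mylip -0.011 and Lcat 0.010. The cause was not tested. The number at an unadjusted p under 0.05 was 1 without a filter, 1 in DESeq2, 0 to 1 without single libraries and 3 without both. Genotypes did not overlap for 1 to 3 genes without single libraries (3 without WT 2 or Abca4KO 1, against 28% and 25.6% of all genes tested in those fits) and for 6 without both, where fewer libraries make separation easier. Over all genes, 8 passed the threshold, against 19 without a filter, 106 in DESeq2, 3 to 11 without single libraries (4 without WT 1, 3 without Abca4KO 2 and 3 without Abca4KO 3) and 190 without both.

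Libraries of the same number are not stated to be paired, and their deviations from the group means correlated at 0.17, 0.34 and -0.08. With the replicate number as a block, 9 genes passed overall and 0 of the set, and the ratio of Nr1h3 to Nr1h2 differed by 0.17. That ratio kept its sign in all alternatives run for it. The ratio of Abcg1 to Abca1 kept its sign in each fit with left-out libraries, the only alternatives run for it. The number of LXR partners and coregulators at an unadjusted p under 0.05 was 0 to 3 without single libraries, 1 with RLE size factors and 5 without both WT 2 and Abca4KO 1. Over all genes tested, the shares in those fits were 4.26% to 10.7%, 6.83% and 16.4%. The list alternatives and the Abcg1 to Abca1 ratio were added after the data were seen. With 3 mice per group, the interval of Abcg1 spans almost a doubling, and Apob is limited by its 3 reads.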

Other observations

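The libraries numbered 2 in each genotype resembled one another for several of these genes. Nr1h2 and Nr1h3 were highest, and Mttp and Mylip lowest, in WT 2 and Abca4KO 2, and rod markers had their lowest sums in the same libraries, 684 and 1026 CPM. RPE markers were lowest there too, at 32593 and 36771 CPM. Apoe, Pltp, Abcg1 and Mylip, all known LXR targets, had their highest value in Abca4KO 3, as did Fads2. The LXR targets Abca1 and Mertk had their lowest value there, at 149.3 and 193.3 CPM. Further LXR targets were highest elsewhere: Mlxipl and Scd2 in Abca4KO 1, Scd1 and Smpdl3a in Abca4KO 2, and Srebf1 in WT 2. LXR targets as a group thus had no common highest library. In Abca4KO 3 the 10 endothelial markers summed to 812 CPM.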
